A study of Mus musculus with 2 samples.

Results

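The genes of bile acid synthesis, transport and FXR control were examined in regenerating livers of mice labelled wild type (WT) or PPARbeta-null (KO). The group holds 10 genes, listed by symbol and not picked by a threshold on their values, but chosen with earlier results of these data known. All 10 had a value above 0 among the 33224 gene symbols of the deposited table. Hepatic RNA of each genotype gave 1 library. Without replicates no test between the genotypes was made, and how far mice of a genotype differ is not known. Both libraries came from liver of male C57BL/6 mice labelled 4 months old, within a stated range of 3 to 5 months, collected 48 hr after partial hepatectomy (PH), a surgery after which the remaining liver regrows. How the KO allele was made and how many mice gave RNA to each library are not given in the sources used here.

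Bile acids are made from cholesterol in hepatocytes. The classic pathway begins with the 7α-hydroxylase Cyp7a1, its rate-limiting enzyme, and the 12α-hydroxylase Cyp8b1 directs its products to cholic acid. The alternative pathway runs through the mitochondrial sterol 27-hydroxylase Cyp27a1 and the oxysterol 7α-hydroxylase Cyp7b1. The bile acid-CoA ligase Slc27a5 and the acyltransferase Baat then join bile acids to taurine or glycine. Slc10a1 (NTCP) takes them up from blood and Abcb11 (BSEP) pumps them into bile. The bile acid receptor FXR, encoded by Nr1h4, raises transcription of Abcb11 and of Nr0b2, which encodes the corepressor SHP, and SHP is known to repress Cyp7a1 and Cyp8b1.

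Values are FPKM, in which the fragments of a gene are divided by its exon length and by the library's mapped fragments. They can be compared between genes of a library because they are per length. The lowest values of single-exon genes lay at steps of 0.0194 FPKM in WT and 0.0182 in KO on a transcript of 1 kb, taken as the worth of 1 fragment. From these steps the fragments behind each value were estimated, and the 95% intervals given below are exact (Clopper-Pearson for ratios, Poisson for levels) and cover counting error only. Ppard, the targeted gene, had 2.67 FPKM in WT and 2.42 in KO, so the level of its whole locus did not separate the libraries. Expressed genes, those whose mean of both libraries reached 1 FPKM, numbered 11723. Of these 75.6% had a lower value in KO, their median log2 KO/WT was -0.24, and bile acid genes are also given relative to this median. The liver label was met by hepatocyte markers, all 5 of which were expressed, although Cps1 was 2.15-fold lower in KO.

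Of the 10 genes, 9 had a lower FPKM and 1 a higher FPKM in KO than in WT, but only Cyp7a1 and Nr0b2 differed by more than 2-fold. Cyp7a1, the enzyme that starts the classic pathway, was 24.97-fold lower in KO, and Nr0b2, encoding SHP, was 2.22-fold higher. The other 8 genes, among them Nr1h4 and the transporters, lay between 1.55-fold lower and 1.02-fold lower in KO. Among all expressed genes 8.69% were more than 2-fold lower and 1.77% more than 2-fold higher in KO, against 1 of 10 bile acid genes in each direction. Their median log2 KO/WT was -0.32, against -0.24 over all expressed genes. In bulk liver RNA, fewer cells of a type and less RNA per cell cannot be told apart.

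**Figure D1:**
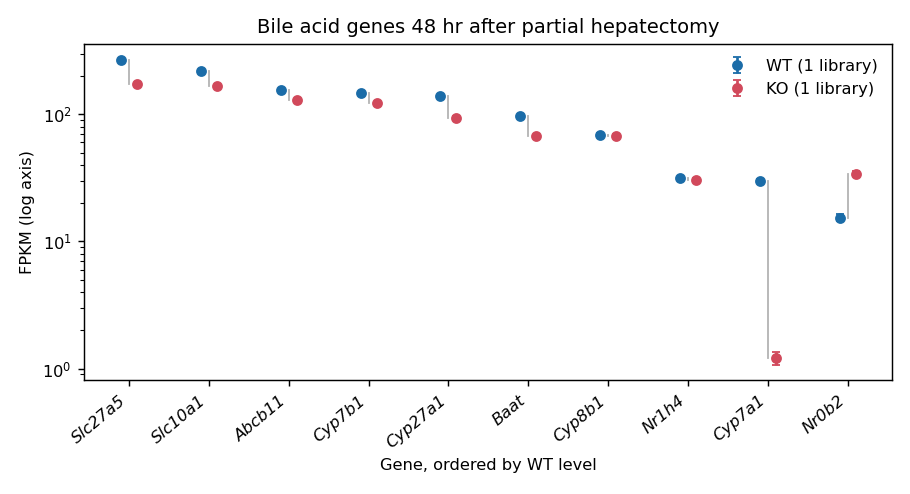
FPKM of the 10 bile acid genes on a log axis, in the WT library (blue) and the KO library (red), ordered by WT level, with 95% Poisson intervals for counting error. Cyp7a1 lies at 30.1 FPKM in WT and 1.20 in KO, Nr0b2 is above its WT level in KO, and the points of each other gene lie close together.

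The promoters of 6 of the 10 genes were found in the RefSeq table (Cyp27a1, Abcb11, Nr0b2, Cyp8b1, Nr1h4 and Slc10a1), and those of Cyp7a1, Cyp7b1, Baat and Slc27a5 were not. The 250 bases before the start are shown for Nr0b2, the gene higher in KO, for Abcb11, the classical FXR target, and for Cyp8b1, a SHP-repressed enzyme whose level was nearly equal in the libraries. Sequences are RefSeq (GRCm38.p6), and the same bases were found once on NCBIM37, the build of the files, at chr4:133109041-133109290 (plus strand) for Nr0b2, chr2:69180674-69180923 (minus strand) for Abcb11 and chr9:121825424-121825673 (minus strand) for Cyp8b1. Capitals mark matches to the motifs described next.
Nr0b2: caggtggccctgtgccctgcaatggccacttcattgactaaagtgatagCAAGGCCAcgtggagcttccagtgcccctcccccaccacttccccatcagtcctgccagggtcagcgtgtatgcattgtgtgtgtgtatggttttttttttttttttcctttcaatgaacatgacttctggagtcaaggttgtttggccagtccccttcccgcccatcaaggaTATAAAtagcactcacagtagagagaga
Abcb11: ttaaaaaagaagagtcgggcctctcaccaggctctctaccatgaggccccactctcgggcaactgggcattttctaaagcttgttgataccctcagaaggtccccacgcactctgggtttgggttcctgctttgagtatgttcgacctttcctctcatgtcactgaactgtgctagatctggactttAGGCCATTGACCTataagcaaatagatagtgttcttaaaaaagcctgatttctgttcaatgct
Cyp8b1: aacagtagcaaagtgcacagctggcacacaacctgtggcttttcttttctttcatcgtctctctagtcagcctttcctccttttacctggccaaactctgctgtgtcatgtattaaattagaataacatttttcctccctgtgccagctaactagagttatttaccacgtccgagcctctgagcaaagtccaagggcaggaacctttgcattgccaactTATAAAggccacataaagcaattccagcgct

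Both strands of windows of 300 bases, 250 of them before the start, were searched for letters known from these genes' regulators. The Nr0b2 window held CAAGGCCA, a form of the site of LRH-1 (encoded by Nr5a2), at -201 to -194 from the start, and 2.40% of 32544 RefSeq windows held it. The other form, CAAGGTCA, was in none of the 6 genes' windows and in 1.53% of all. In Abcb11, positions -63 to -51 matched with 1 mismatch the inverted repeat bound by FXR, AGGTCA and its reverse complement with 1 base between, which 0.083% of windows held with at most 1 mismatch and 0.00922% held without. The right arm of this repeat is itself, on the other strand, AGGTCA, the letters many nuclear receptors bind. AGGTCA was also found in Nr1h4, in a Slc10a1 window and in 16.2% of all windows. The Nr1h4 bases before the start, chr10:88969404-88969653, lie inside the annotated gene. TATAAA lay at -28 to -23 in Nr0b2 and at -31 to -26 in Cyp8b1. It was found on the other strand in a different Slc10a1 window, and was present in 13.6% of windows. The D-box TTATGTAA (0.931% of windows) and the direct repeat of AGGTCA with 1 base between (0.0399%, or 0.559% with 1 mismatch) were in no window of these genes. A match describes letters and not binding.

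For the classic pathway, Cyp7a1 (NCBIM37, as for all genes below, minus strand of chromosome 4, 6192759 to 6202780, 6 exons in its longest transcript) had 30.1 FPKM in WT and 1.20 FPKM in KO. About 6468 and 276 fragments stood behind these values, and the WT/KO ratio of 24.97 had a counting interval of 22.1 to 28.3. The KO level was thus far below the WT level by counting error, while the spread between mice is not known. Its log2 KO/WT was -4.53, or -4.30 relative to the median of all genes, and 73 of the 11723 genes had a lower value. When only the 11057 genes with at least 1 FPKM in both libraries were counted, 5 genes had a lower log2 KO/WT than Cyp7a1. That filter removes genes that fell below 1 FPKM in KO, and Cyp7a1 passed it narrowly, at 1.20 FPKM. The smaller count thus follows from the filter and does not make Cyp7a1 more extreme. Its place among the levels of all genes went from above 79.5% of them in WT to above 7.94% in KO. The locus in the table reaches 1410 bases beyond the annotated gene.

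Cyp8b1, which makes the 12α-hydroxylated precursor of cholic acid, is a gene of 1 exon (minus strand of chromosome 9, 121823474 to 121825423). It had 69.1 FPKM in WT and 67.8 FPKM in KO, a KO/WT ratio of 0.981 with a counting interval of 0.949 to 1.014. The libraries could not be told apart by counting error for this gene as deposited. Within a library, where scaling plays no part, the level of Cyp8b1 was 2.30 times that of Cyp7a1 in WT and 56.2 times in KO.

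In the alternative pathway both enzymes were lower in KO by less than 2-fold. Cyp27a1 (plus strand of chromosome 1, 74760148 to 74784464, 9 exons) had 140 FPKM in WT and 94.2 in KO, and the WT/KO ratio was 1.48 with a counting interval of 1.45 to 1.52. Cyp7b1 (minus strand of chromosome 3, 17971950 to 18143338, 6 exons) had 146 FPKM in WT and 122 in KO, and its ratio was 1.20 with an interval of 1.17 to 1.23. Relative to the median of all genes, Cyp27a1 was -0.33 and Cyp7b1 -0.02 on the log2 scale, so the lower level of Cyp7b1 was that of the median gene. The ratio of Cyp7b1 to Cyp27a1 within a library was 1.04 in WT and 1.29 in KO. Both were among the most abundant genes, with Cyp7b1 above 95.2% of them in WT and above 94.8% in KO.

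The conjugating enzymes showed differences near that of Cyp27a1 in size. Slc27a5, the ligase that makes bile acid-CoA (minus strand of chromosome 7, 13573695 to 13583541, 10 exons), was the most abundant of the 10 genes in both libraries, with 268 FPKM in WT and 173 in KO. Its WT/KO ratio of 1.55 (counting interval 1.52 to 1.58) was the largest after that of Cyp7a1, and 17.1% of all genes had a lower log2 KO/WT. Baat, which transfers taurine or glycine (minus strand of chromosome 4, 49502294 to 49519429, 4 exons), had 96.3 FPKM in WT and 67.1 in KO, and its ratio was 1.43 (counting interval 1.39 to 1.48). On the log2 scale, Slc27a5 was -0.39 and Baat -0.28 relative to the median of all genes. Baat is the only one of the 10 genes with 2 rows in the table, both over the same span, at 93.9 and 2.35 FPKM in WT and 65.5 and 1.63 in KO, and the KO/WT ratios of the rows were 0.698 and 0.691. Its locus in the table spans 7892 bases more than the annotated gene.

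The transporters were lower in KO by less than these enzymes. Slc10a1, the uptake carrier (minus strand of chromosome 12, 82054172 to 82068971, 5 exons), had 217 FPKM in WT and 168 in KO, and its WT/KO ratio was 1.29 with a counting interval of 1.27 to 1.32. On the log2 scale it was -0.14 relative to the median of all genes. Abcb11, the canalicular export pump (minus strand of chromosome 2, 69076339 to 69180671, 29 exons), had 154 FPKM in WT against 129 in KO, which gave a ratio of 1.19 with an interval of 1.18 to 1.21. The pump, whose promoter holds the FXR-type repeat with 1 mismatch, thus differed from the median gene by only -0.02 on the log2 scale. The ratio of uptake carrier to pump was 1.41 in WT and 1.297 in KO.

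The receptor and the corepressor differed from each other. Nr1h4, encoding FXR (minus strand of chromosome 10, 88916979 to 88996330, 10 exons), had 31.3 FPKM in WT and 30.6 in KO, a KO/WT ratio of 0.977 whose counting interval of 0.931 to 1.03 included 1. Nr0b2, encoding SHP (plus strand of chromosome 4, 133109291 to 133112451, 2 exons), had 15.4 FPKM in WT and 34.2 FPKM in KO. These values rested on about 896 and 2124 fragments, and the KO/WT ratio of 2.22 had a counting interval of 2.06 to 2.41. Its log2 KO/WT was 1.15, or 1.38 relative to the median of all genes, and 146 of 11723 genes had a higher value. Nr0b2 thus went from 0.491 times the level of Nr1h4 in WT to 1.12 times in KO.

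**Figure D2:**
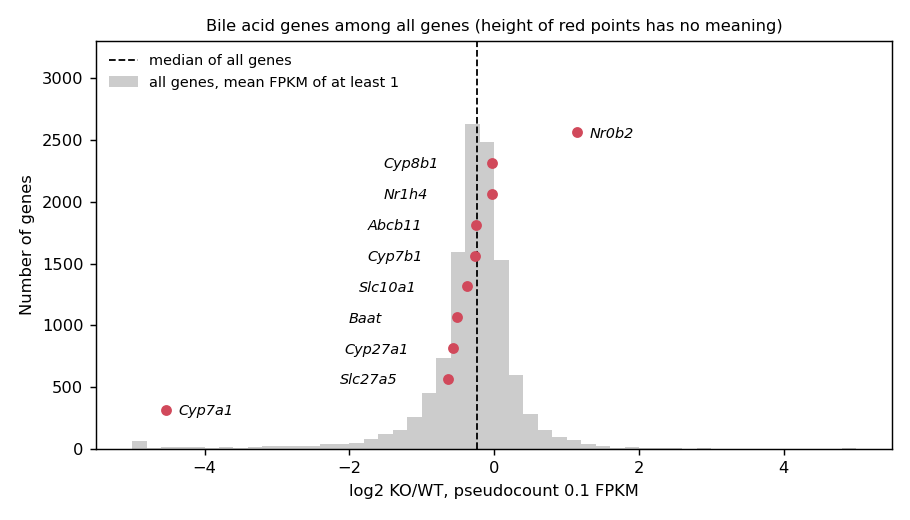
Histogram of log2 KO/WT over the 11723 expressed genes (grey), with the median of all genes as a dashed line and each bile acid gene as a red point at its log2 KO/WT. The 51 genes below -5 and 3 above 5 are drawn at the edges. Cyp7a1 lies at -4.53 and Nr0b2 at 1.15, and the other 8 genes lie between -0.63 and -0.03.

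By level, the order in WT was Slc27a5, Slc10a1, Abcb11, Cyp7b1, Cyp27a1, Baat, Cyp8b1, Nr1h4, Cyp7a1 and Nr0b2. Of the neighbours in this order, Nr1h4 and Cyp7a1 were not distinguished by counting error. In KO the first 5 genes kept their order, Cyp8b1 and Baat followed with overlapping intervals, then Nr0b2 and Nr1h4, and Cyp7a1 came last. The intervals of Slc27a5 and Slc10a1 also overlapped in KO. The 10 levels summed to 1166 FPKM in WT and 886 in KO.

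The direction of Nr1h4 and Cyp8b1 depended on how the libraries were scaled. Scaling to equal sums of FPKM, to equal upper quartiles or to the median gene shifted every log2 KO/WT upward, by 0.03, 0.20 and 0.24. Under all 3 scalings Cyp8b1 (0.01, 0.18 and 0.21) and Nr1h4 (0.00, 0.17 and 0.20) were higher in KO, and the other 8 genes kept their side. Cyp7a1 stayed between -4.50 and -4.31 and Nr0b2 between 1.18 and 1.38, so these were the genes more than 2-fold apart under each scaling.

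**Figure D3:**
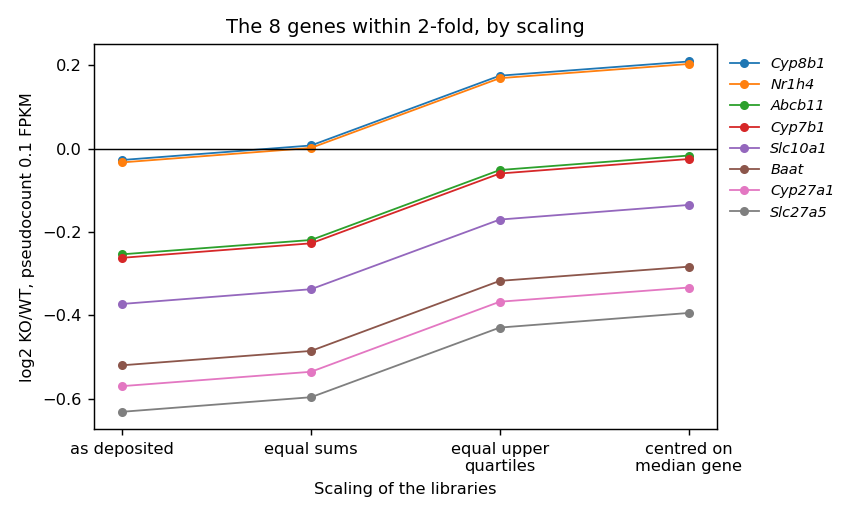
log2 KO/WT of the 8 genes within 2-fold (y axis) as deposited and under 3 scalings of the libraries (x axis), with 1 line per gene. Cyp8b1 and Nr1h4 cross 0, and the other 6 stay below it, with Abcb11 and Cyp7b1 at -0.02 after centring on the median gene.

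The other enzymes of bile acid synthesis went partly the other way. Of 13 listed genes, 11 were expressed, 8 of them higher and 3 lower in KO. Their median log2 KO/WT was 0.37, or 0.60 relative to the median of all genes, and 2 were more than 2-fold lower. Among all expressed genes 75.6% were lower in KO and 8.69% more than 2-fold lower. The most abundant were Scp2, Akr1c6 and Slc27a2. Scp2, the peroxisomal thiolase that shortens the side chain, had 1000 FPKM in WT and 1375 in KO. The reductase Akr1c6 had 486 and 619, and the CoA ligase Slc27a2 had 227 and 359. Named after their values were seen, the genes more than 2-fold lower were Cyp2c70, which makes the muricholic acids of mice, with 408 FPKM in WT and 63.3 in KO (6.44-fold), and the 5β-reductase Akr1d1, with 106 and 19.4 (5.50-fold). Cyp7a1 was therefore not the sole gene of bile acid synthesis with a large difference.

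Among 13 other transporters of bile acids and biliary lipids, 11 passed the filter, 6 of them higher and 5 lower in KO. The median log2 KO/WT was 0.05, or 0.29 relative to the median of all genes. Of all expressed genes, 75.6% were lower in KO and 8.69% more than 2-fold lower. Slco1b2, an uptake carrier of the sinusoidal membrane, had 198 FPKM in WT and 369 in KO. The canalicular export pump Abcc2, whose row also names Gm10768, had 112 and 88.7 FPKM, and Abcb4, which moves phosphatidylcholine into bile, had 43.5 and 86.8. The genes more than 2-fold apart, named after their values were seen, were both lower in KO, Slc51b (listed as Ostb) with 1.83 and 0.228 FPKM and Slco1a4 with 30.7 and 14.7. Slc51b passed the filter only through its WT value. Slc51a, the partner subunit of Slc51b and also named for its values, was listed at 0.0107 FPKM in WT and 0 in KO.

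Expressed regulators of these genes mostly lay within 2-fold between the libraries, but more of them were higher in KO than lower. Of 17 listed genes 14 passed the filter, 10 of them higher and 4 lower in KO. The median log2 KO/WT was 0.14, or 0.38 relative to the median of all genes. Over all expressed genes, 75.6% were lower and 1.77% more than 2-fold higher in KO. Under equal upper quartiles and under centring on the median gene, 12 of the 14 were higher in KO. Hnf4a, which drives hepatocyte genes including Cyp7a1, had 172 FPKM in WT and 193 in KO, and Rxra, the partner of FXR, had 91.2 and 114. Mafg, a repressor induced by FXR, had 196 and 162, but its row also names Pcyt2 and Sirt7. Nr5a2, encoding LRH-1, had 13.6 FPKM in both libraries. The receptors for the ileal hormone Fgf15 were Fgfr4, with 11.2 and 12.9 FPKM, and its coreceptor Klb, with 6.73 and 6.14, while Fgf15 was listed at 0 in both. Nr1i3, encoding the xenobiotic receptor CAR, was the only regulator more than 2-fold apart, with 35.6 FPKM in WT and 75.6 in KO. Nr5a2, Fgf15, Fgfr4, Klb and Nr1i3 were named after their values were seen.

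Known FXR targets other than Nr0b2 and Abcb11 went in both directions, with a share of lower values near that of all expressed genes. Of 9 listed genes 8 passed the filter, 2 of them higher and 6 lower in KO, and the median log2 KO/WT was -0.31. Over all expressed genes, 75.6% were lower in KO, 8.69% more than 2-fold lower and 1.77% more than 2-fold higher. Insig2, which retains the sterol sensor in the endoplasmic reticulum, was higher in KO, with 116 FPKM in WT and 368 in KO, or 3.17 times the WT level. Abcb4, just under 2-fold with a KO/WT ratio of 1.99, was the other gene higher in KO, and Slc51b was 8.05-fold lower. Slc51b had 1.83 FPKM in WT and 0.228 in KO, so this fold rests on low values. Apoc2, whose row also names Apoc4, had 1207 and 1068 FPKM. Abcb4, Abcc2, Slc51a and Slc51b are also on the transporter list, and Mafg on the list of regulators.

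**Figure D4:**
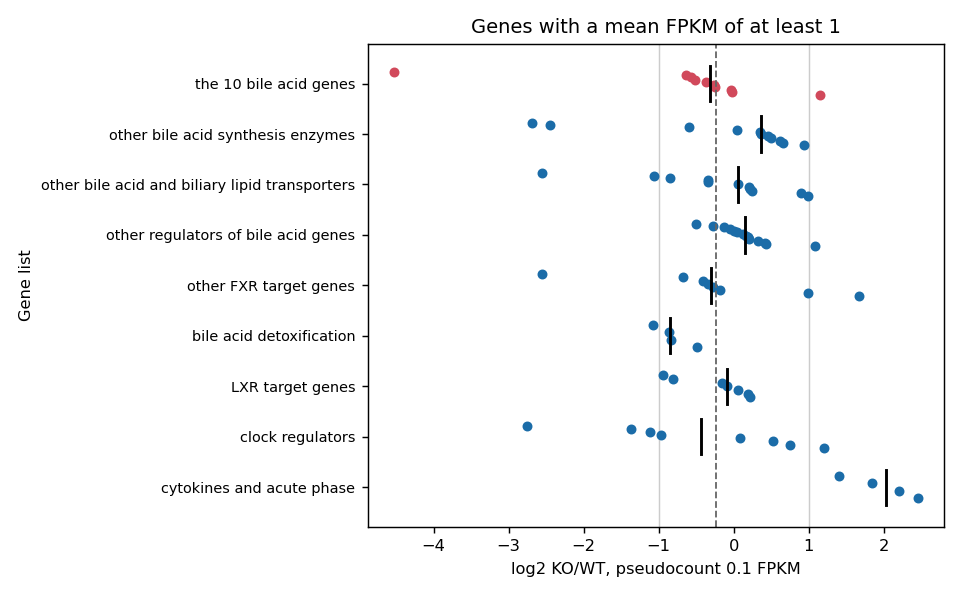
log2 KO/WT of every expressed listed gene (points), by list, with the list's median as a black bar, the median of all genes as a dashed line and grey lines at 2-fold. The 10 bile acid genes (red) spread from -4.53 to 1.15, the other synthesis enzymes have a median of 0.37, and the acute phase genes lie to the right of all other medians.

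Several other groups differed between the same libraries, and their part in the values of Cyp7a1 and Nr0b2 was not tested. Of 9 clock regulators, 8 passed the filter, 4 higher and 4 lower in KO. Dbp, which is known to activate Cyp7a1, had 14.8 FPKM in WT and 2.11 in KO, and it was more than 2-fold lower together with Tef (28.4 and 10.9), Nr1d2 (24.9 and 11.5) and Per2 (3.60 and 1.79). Arntl, the positive arm of the clock, was more than 2-fold higher, with 2.64 FPKM in WT and 6.18 in KO. Nr1d1, a clock repressor, had 21.4 FPKM in WT and 30.9 in KO. The other listed clock genes higher in KO, each by less than 2-fold, were Hlf (9.19 and 9.77) and Nfil3 (12.3 and 20.6). Of 7 cytokine and acute phase genes, the 4 that passed the filter were more than 2-fold higher in KO. Among all expressed genes 8.69% were more than 2-fold lower and 1.77% more than 2-fold higher. Haptoglobin (Hp) had 4002 FPKM in WT and 10602 in KO, Saa1 had 2839 and 13137, Saa2 had 2592 and 14274, and Lcn2 had 538 and 1935. Saa1 and Saa2 are close copies, and how reads were divided between them is uncertain. Il1b, Tnf and Il6 were at or below 0.474 FPKM in both libraries. Dbp, Per2, Arntl, Hlf, Nfil3, Lcn2 and the cytokines were named after their values were seen.

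Summed marker levels of the other liver cell types were lower in KO for macrophages (5 genes, 34.4 FPKM in WT and 23.0 in KO), endothelial cells (4 genes, 21.9 and 13.1), stellate cells (5 genes, 85.8 and 58.6) and neutrophils (4 genes, 12.8 and 6.81). The macrophage marker Marco went the other way, with 6.58 FPKM in WT and 7.37 in KO. Much of the macrophage sum was Clec4f (17.3 and 10.6), and most of the stellate sum was Dcn (62.6 and 46.9). Cholangiocyte markers, of interest because these cells also carry bile acid transporters, summed to 29.8 FPKM in WT and 25.8 in KO over 6 genes, nearly all of it Spp1 (24.5 and 22.7). Krt7, Krt19 and Epcam were between 1.64-fold and 3.10-fold lower in KO, and the KO/WT ratios of Sox9, Spp1 and Cftr were between 0.913 and 1.07. The hepatocyte markers summed to 8648 and 8745 FPKM, with 3 of 5 higher in KO. Of 4 erythroid markers only Alas2 was expressed, with 20.6 FPKM in WT and 37.5 in KO, while Slc4a1 went the other way, with 0.158 and 0.0461. Lymphocyte markers summed to at most 0.316 FPKM. Ileal markers summed to 24.5 FPKM in WT and 51.2 in KO over 4 genes, nearly all of it Fabp2, while Fabp6 and Sis were listed at 0 in both libraries, as were the neutrophil markers Ly6g and Mpo. Cps1, Marco, Clec4f, Dcn, the cholangiocyte markers, Alas2, Slc4a1 and Fabp2 were picked out once their values were known. The part of these cell types in the values of the bile acid genes was not tested.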

How the data were processed

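Liver RNA of each genotype was sequenced as 1 library of 100-base reads, given as paired-end in the labels and as both single-end and paired-end in the paper. Per the paper's methods, the authors aligned reads with TopHat 2.0.0 to NCBI37 (mm9), assembled transcripts with Cufflinks 1.3.0 and estimated FPKM per locus with Cuffdiff. The unit analysed is the FPKM deposited by the authors. Whether quartile normalization was used is not given in the sources used here. The table also holds the authors' own fold changes, test statistics, p-values and q-values, which were not used.

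Rows were split at commas into symbols, the 21 rows marked HIDATA were left out, and rows of one symbol were summed. A row naming several symbols (850 loci) gave its value to each. For log2 KO/WT, 0.1 FPKM was added to both values, so the difference of a low gene is understated. Lists count expressed genes (mean of 1 FPKM or more), and a gene over 2-fold has a ratio of FPKM above 2 in either direction. Depth came from single-exon genes of 900 to 4000 bases (440 above 0 in WT, 415 in KO), and fragments from the longest annotated transcript of each gene. The KO library was 1.07 times as deep as the WT library. Gene coordinates are those of GENCODE vM1 on NCBIM37, counted from 1. Promoters were searched in RefSeq windows, and their printed bases placed on NCBIM37 by exact match.

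The genes named are the 10 members, the 3 of each other list with the highest mean FPKM, the markers at 0 and Ppard, and others are said to be named after their values were seen. The members and lists were chosen with earlier results of these data known. With 1 library per genotype no test was run, and no gene can be ranked by likeness of pattern. Steps were tested on simulated data. Scripts ran under Python 3.11.15 with scipy 1.17.1 (intervals), pandas 2.3.3, numpy 2.4.6 and, for plots, matplotlib 3.10.9.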

Additional observations from a re-analysis of the deposited data

How the results depend on the processing

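With 1 library per genotype, no library could be left out. No paired analysis was possible because each genotype has a single library. The median log2 KO/WT of the 10 bile acid genes was -0.32 as deposited and moved most under centring on the median gene, to -0.08, and under equal upper quartiles, to -0.12. It was -0.28 with equal sums and between -0.317 and -0.315 under the other 5 alternatives, 2 of them other pseudocounts. Leaving out shared rows and requiring 1 FPKM in both libraries could not move it, since neither removed a member. The number of genes more than 2-fold apart was 1 lower and 1 higher in KO under the 3 scalings, with the highest row per symbol, without rows naming several symbols and without the filter on low FPKM. The last 3 of these settings could not change the counts. No member shares a row with another symbol, the rows of Baat had similar ratios, and all 10 genes passed the filter. With a fold above 1.5, 2 genes were lower (Cyp7a1 and Slc27a5) and 1 higher. Of 60 values of single genes under alternatives, 25 moved beyond counting error. A change of direction was tallied only for Cyp7a1 and Nr0b2, whose differences were larger than any shift made here, so neither could change direction. Cyp8b1 and Nr1h4, which changed side under scaling, were outside that tally. A pseudocount of 1 FPKM brought Cyp7a1 to -3.82 on the log2 scale. Depth limits these values little, since the member with the fewest fragments in a library had about 276, whereas the difference between mice was not measured.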

Other observations

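Genes of bile acid detoxification and targets of the oxysterol receptor LXR were listed as well. Of 5 detoxification genes, 4 were expressed, and all 4 had lower values in KO. Their median log2 KO/WT was -0.85 (-0.61 relative to the median of all genes). Among all expressed genes 75.6% were lower in KO and 8.69% more than 2-fold lower, so a count of 4 says little. Cyp3a11, a hydroxylase of bile acids and drugs, had 3926 FPKM in WT and 2202 in KO. The joint row of the Ugt1a genes, which includes the bilirubin transferase Ugt1a1, had 383 and 274 FPKM, and Papss2, which makes the sulphate donor, had 67.0 and 31.7 and was the only one more than 2-fold lower. Sult2a1, named after its value was seen, was listed at 0 in both libraries. All 4 stayed lower in KO under the 3 scalings of the libraries.

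All 7 LXR targets passed the filter, 3 of them higher and 4 lower in KO. The median log2 KO/WT was -0.09, or 0.14 relative to the median of all genes. Of all expressed genes, 75.6% were lower in KO and 8.69% more than 2-fold lower. The 3 higher genes are shared with lists already described, Abcg5 and Abcg8 with the transporters and Nr1h3 with the regulators. Nr1h3, encoding LXRα, had 47.7 FPKM in WT and 54.6 in KO, in a row that also names Madd and Gm13783. The cholesterol exporter Abca1 had 24.5 and 22.9, and Lpcat3, a phospholipid-remodelling enzyme, had 41.0 and 23.3. Abcg1 was the only target more than 2-fold apart, with 1.36 FPKM in WT and 0.657 in KO. It passed the filter only through its WT value. It was picked out once its values were known. Under equal upper quartiles and under centring, 5 of the 7 were higher in KO.

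Slc10a2, the apical bile acid carrier of ileum and bile ducts, had 31.4 FPKM in WT and 17.4 in KO. Ch25h, the cholesterol 25-hydroxylase, was low in both libraries, with 0.710 FPKM in WT and 0.0722 in KO. Both were named after their values were seen.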
